A study of Mus musculus with 12 samples.

Results

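The transcripts of 8 fibrillar collagen chains were followed in mouse skin, Col1a1, Col1a2, Col3a1, Col5a1, Col5a2, Col5a3, Col11a1 and Col24a1. They were taken by symbol from a table of 55453 genes, and all 8 had enough reads to be tested among 18311 genes. Skin was sequenced in bulk from 12 C57/BL6 mice, 3 in each of 4 groups. WT PBS and WT BLM were wild-type mice given PBS, the vehicle, or bleomycin (BLM). KO PBS and KO BLM were Thy1-knockout mice given the same agents. All mice were adult females, the knockout is not limited to a cell type, and the skin represents day 21 of the bleomycin model, in which daily injections under the skin of the back make the dermis fibrotic. The study asked whether loss of Thy-1, a surface glycoprotein of fibroblasts, changes that fibrosis. Each mouse is named here by its group and number.

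Fibrillar collagens are secreted by fibroblasts as procollagens, trimmed at both ends, assembled into banded fibrils and cross-linked. Type I, made of Col1a1 and Col1a2 chains, and type III, made of Col3a1 alone, form the bulk of the dermal fibrils. Type V (Col5a1, Col5a2, Col5a3) and type XI (Col11a1 with partners) sit inside the fibril, start its assembly and limit its width. Type XXIV (Col24a1) is a minor fibrillar collagen known mainly from bone. Excess type I and type III collagen is a hallmark of scarred skin.

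Library totals ran from 26473700 to 38890450 counts. Thy1 was still counted in the knockouts, at 45.6, 96.9 and 77.4 CPM (counts scaled to a common library total) in KO PBS and 84.7, 128 and 96.4 CPM in KO BLM. WT PBS mice had 104, 115 and 150 CPM and WT BLM mice 231, 349 and 416 CPM. The part of the gene removed is not given in the sources used here. Every knockout mouse lay below every wild-type mouse of its treatment, but Thy1 did not pass the test in either genotype comparison (edgeR adjusted p = 0.224 under PBS and 0.112 under BLM). DESeq2 called it under BLM (adjusted p = 9.3e-05) and not under PBS (0.155). A second feature separated the libraries. A list of 38 tested genes of the growing hair shaft and its sheath had a mean log2 CPM of 8.96 to 9.80 in WT PBS, 9.69 in KO PBS 136 and 8.59 in KO BLM 141, and of -0.83 to 5.55 in the other 7 mice. All WT PBS mice were high and all WT BLM mice low (-0.25 to 2.89), so bleomycin and hair growth cannot be told apart among the wild-type mice. In bulk skin, fewer fibroblasts and less collagen mRNA per fibroblast cannot be told apart either.

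The 8 chains took up 0.541% to 0.771% of all counts in WT PBS, 1.19% (mouse 145), 3.63% (146) and 2.85% (147) in WT BLM. In KO PBS they took up 0.484% (136), 1.80% (137) and 1.37% (139), and in KO BLM 0.92% (141), 2.39% (143) and 2.16% (144). Col1a1 was the gene with the most counts in WT BLM 147, and stood at rank 39 in KO PBS 136. The lowest knockout mouse under each treatment was the one with the high hair list.

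Per kilobase of transcript, 3 chains stood far above the rest. In WT PBS skin, Col3a1 had 385 ± 78.3 CPM per kb, Col1a2 384 ± 53.5 and Col1a1 332 ± 51.1 (SD, n = 3), and these ranges overlapped. Next came Col5a2 at 29.2 ± 4.39 and Col5a1 at 24.0 ± 2.79 CPM per kb, which overlapped each other, and Col5a3 at 17.1 ± 2.33, below every Col5a1 value. Col11a1 had 4.72 ± 2.07 CPM per kb and Col24a1 0.204 ± 0.0493. In WT BLM the order of the groups of chains was kept, except that Col24a1 (2.31 ± 1.20) came to overlap Col11a1 (2.39 ± 0.295).

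**Figure D1:**
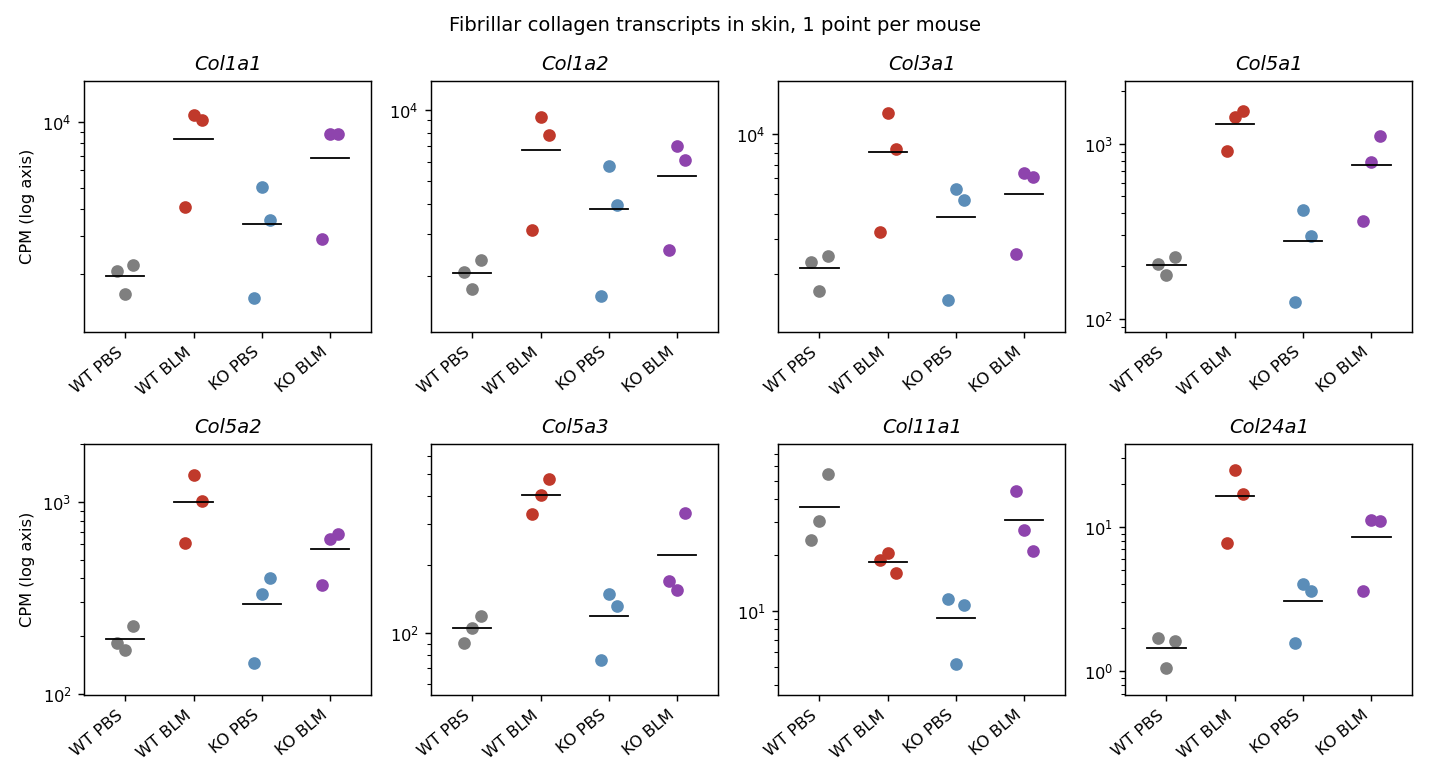
CPM of each chain on a logarithmic axis, 1 point per mouse, with the mean of each group of 3 as a line. For Col11a1 the 3 KO PBS mice are the lowest of the 12, at 5.17 to 11.5 CPM, and the WT BLM mice lie below the WT PBS mice.

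Between WT BLM and WT PBS mice, 7 of the 8 chains passed the test and were higher with bleomycin, against 34.0% of all tested genes called in that comparison, 19.8% higher and 14.1% lower. The count fell to 4 when any 1 WT PBS mouse, WT BLM 146 or WT BLM 147 was left out. In those fits the genes called in all also fell, from 6222 to between 2615 and 3706. With the hair list as a covariate the count of chains fell to 0, and 9 of all genes were called. The median log2 fold change was 2.02 for the 8 chains and 0.02 for all genes. The increases ran from 3.29-fold for Col1a2 to 11.3-fold for Col24a1. In all 7 the lowest WT BLM mouse was above the highest WT PBS mouse, which held for 28.3% of all tested genes. In knockout mice none of the 8 chains passed the same test between BLM and PBS, where 0.306% of all genes were called. All 8 log2 fold changes there were above 0, with a median of 0.98 against -0.01 for all genes. Of the 8, 5 had an unadjusted p under 0.05, as did 20% of all genes, and DESeq2, which called 5.95% of its genes, called 2 of them, Col5a1 and Col11a1.

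For Col1a1, the major chain of type I collagen, WT PBS mice had 2079, 1629 and 2205 CPM and WT BLM mice 4070, 10755 and 10224 CPM. KO PBS mice had 1560, 5054 and 3565 CPM and KO BLM mice 2905, 8835 and 8828 CPM. The wild-type groups were separate, while KO BLM 141 fell inside the range of KO PBS. The wild-type increase of Col1a1 was 4.24-fold (log2 fold change 2.08, SE 0.56, edgeR adjusted p = 0.0213). In the knockouts the log2 fold change was 1.01 (SE 0.55, edgeR adjusted p = 0.318).

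Col1a2, the partner chain of Col1a1, had 2067, 1760 and 2331 CPM in WT PBS and 3120, 9295 and 7827 CPM in WT BLM. It had 1646, 5811 and 3978 CPM in KO PBS and 2563, 7037 and 6112 CPM in KO BLM. WT BLM 145 stood closer to the PBS mice than to the other WT BLM mice for both type I chains. The wild-type log2 fold change of Col1a2 was 1.72 (SE 0.55, edgeR adjusted p = 0.0376) and the knockout one 0.46 (SE 0.54, edgeR adjusted p = 0.647).

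Col3a1, the single chain of type III collagen, which is prominent in early scars, had 2300, 1649 and 2477 CPM in WT PBS against 3263, 12674 and 8374 CPM in WT BLM. KO PBS mice had 1495, 5322 and 4702 CPM, and KO BLM mice 2523, 6387 and 6096 CPM. The WT BLM values spanned the widest range of any chain relative to their mean, with a coefficient of variation of 58.1%. Col3a1 was 3.78-fold higher in WT BLM (log2 fold change 1.92, SE 0.60, edgeR adjusted p = 0.0341), and in the knockouts its log2 fold change was 0.38 (SE 0.58, edgeR adjusted p = 0.734). The calls of Col1a1, Col1a2 and Col3a1 in wild-type mice were the ones lost in each of those 5 cases.

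In WT BLM the type V chains varied less between mice than the chains of types I and III, with coefficients of variation of 17.5% to 38.3% against 44.5% to 58.1%. Col5a1, found in nearly all type V molecules, had 205, 177 and 224 CPM in WT PBS and 909, 1411 and 1545 CPM in WT BLM. In the knockouts it had 124, 418 and 296 CPM under PBS and 363, 781 and 1110 CPM under BLM. Every WT BLM mouse was above every WT PBS mouse, and KO BLM 141 was the only KO BLM mouse inside the KO PBS range. Col5a1 rose 6.37-fold in wild-type mice (log2 fold change 2.67, SE 0.49, edgeR adjusted p = 0.00626), with 1.43 (SE 0.47, edgeR adjusted p = 0.160) in the knockouts.

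Col5a2 had 184, 170 and 226 CPM in WT PBS, 614, 1381 and 1010 CPM in WT BLM, 144, 332 and 401 CPM in KO PBS, and 370, 642 and 683 CPM in KO BLM. Its wild-type log2 fold change was 2.37 (SE 0.42, edgeR adjusted p = 0.00568), and its knockout one 0.95 (SE 0.40, edgeR adjusted p = 0.225). Col5a3, the least abundant type V chain, had 90.6, 105 and 119 CPM in WT PBS and 335, 404 and 476 CPM in WT BLM. Its KO PBS mice had 76.5, 148 and 132 CPM and its KO BLM mice 169, 155 and 337 CPM, so the knockout groups were also separate, as in 10.8% of all genes with KO BLM above. It rose 3.86-fold in wild-type mice (log2 fold change 1.95, SE 0.33, edgeR adjusted p = 0.00537), while the knockout value of 0.89 (SE 0.32, edgeR adjusted p = 0.176) did not pass.

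Col24a1 was the rarest chain and had the largest fold change of the 8. WT PBS mice had 1.69, 1.05 and 1.63 CPM, from 32 to 64 reads, and WT BLM mice 7.75, 24.8 and 16.9 CPM, from 198 to 761 reads. KO PBS mice had 1.56, 4.06 and 3.61 CPM and KO BLM mice 3.58, 11.1 and 11 CPM. KO BLM 141 was again within the KO PBS range. The log2 fold change was 3.50 in wild-type mice (SE 0.58, edgeR adjusted p = 0.00487) and 1.47 in knockouts (SE 0.53, edgeR adjusted p = 0.176). An antisense gene (9530034A14Rik) and a sense-overlapping gene (D530037P16Rik) share positions with Col24a1, and how the counting split such reads is not given in the sources used here.

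Col11a1, the first chain of type XI collagen, stood apart from the others. It had 23.9, 30.5 and 54.1 CPM in WT PBS and 18.8, 20.4 and 15.9 CPM in WT BLM. In the knockouts it had 11.5, 5.17 and 10.7 CPM under PBS and 44.3, 27.1 and 20.9 CPM under BLM. All WT BLM mice were below all WT PBS mice, all KO BLM mice were above all KO PBS mice, and the 3 KO PBS mice were the lowest of the 12. Of all tested genes, 28.7% had every WT BLM mouse below and 10.8% every KO BLM mouse above. Its log2 fold change was -0.98 in wild-type mice (SE 0.38, edgeR adjusted p = 0.0705) and 1.75 in knockouts (SE 0.39, edgeR adjusted p = 0.0897), neither past the threshold. DESeq2, which called 34.7% of its genes in wild-type mice, called both, with adjusted p = 0.0372 and 0.00137. Among transcripts of Col5a1, Col5a2, Col5a3 and Col11a1 per kilobase, Col11a1 made up 4.46% to 8.08% in WT PBS and 0.499% to 0.95% in WT BLM. This measure was chosen after the values were seen, leaves out Col11a2, and also falls when the type V chains rise, as they did in WT BLM. In KO PBS the share was 2.98% in mouse 136, 0.541% in 137 and 1.18% in 139, and in KO BLM 4.36% in mouse 141, 1.62% in 143 and 0.931% in 144. The highest share in each knockout group was that of the mouse with the high hair list.

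**Figure D2:**
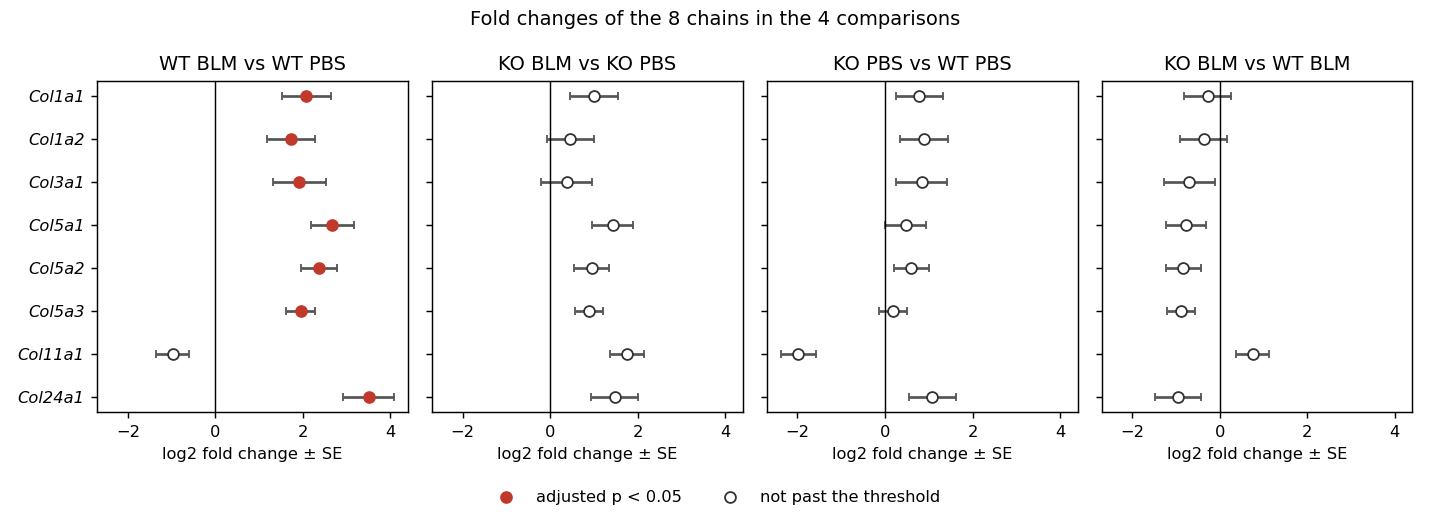
Log2 fold changes with their standard errors for the 8 chains in the 4 comparisons between groups of 3 mice, with filled points for edgeR adjusted p under 0.05. The 7 filled points are all in WT BLM vs WT PBS, at 1.72 to 3.50, and Col11a1 lies on the other side of 0 from the other chains in 3 of the 4 panels.

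The sequences upstream of 4 of these chains are shown because 3 of them, Col3a1, Col5a1 and Col24a1, rose together in wild-type mice while the fourth, Col11a1, did not. Each line gives the 250 bases before the RefSeq start on GRCm38.p6, written on the strand of the gene. Capitals mark a CCAAT box (CCAAT or ATTGG) or a GC box (GGGCGG or CCGCCC).
Col3a1, chr1:45311288-45311537, plus strand: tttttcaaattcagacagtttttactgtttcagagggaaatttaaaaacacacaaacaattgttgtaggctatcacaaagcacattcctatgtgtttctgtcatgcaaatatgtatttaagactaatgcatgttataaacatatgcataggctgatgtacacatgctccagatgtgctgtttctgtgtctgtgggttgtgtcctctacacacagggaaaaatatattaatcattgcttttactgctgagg
Col5a1, chr2:27886175-27886424, plus strand: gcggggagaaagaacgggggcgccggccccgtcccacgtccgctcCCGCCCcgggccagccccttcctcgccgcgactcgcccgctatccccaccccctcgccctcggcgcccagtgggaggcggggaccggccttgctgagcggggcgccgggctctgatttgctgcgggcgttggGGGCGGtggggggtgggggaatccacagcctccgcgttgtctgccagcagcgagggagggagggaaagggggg
Col24a1, chr3:145292222-145292471, plus strand: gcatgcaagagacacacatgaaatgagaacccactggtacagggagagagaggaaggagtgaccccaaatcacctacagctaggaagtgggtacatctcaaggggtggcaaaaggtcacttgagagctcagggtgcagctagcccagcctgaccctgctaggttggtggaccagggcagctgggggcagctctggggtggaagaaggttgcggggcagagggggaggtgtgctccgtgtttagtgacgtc
Col11a1, chr3:114030290-114030539, plus strand: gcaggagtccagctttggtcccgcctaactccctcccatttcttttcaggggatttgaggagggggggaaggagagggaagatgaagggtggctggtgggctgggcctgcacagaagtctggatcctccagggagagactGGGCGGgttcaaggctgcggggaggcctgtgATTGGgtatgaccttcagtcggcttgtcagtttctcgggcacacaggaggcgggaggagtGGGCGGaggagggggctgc
RefSeq upstream sequences were matched for 6 of the 8 chains, including Col1a2 and Col5a3. A CCAAT box was found in 3 of the 6 (Col1a2, Col5a3 and Col11a1), against 33.8% of 32851 promoters of the same length, and a GC box in 4 (the same 3 and Col5a1), against 32.7%. Col3a1 and Col24a1 held neither. The Col3a1 stretch was 35.2% G and C and the Col5a1 stretch 76.4%, around a median of 52.4% for all promoters. Chains with and without these letters both rose in wild-type mice, and a match describes letters only.

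Col1a1 lies on chromosome 11 (94936224 to 94953042, plus strand), with 51 exons in its principal transcript. Col3a1 (45311538 to 45349706, plus strand) and Col5a2 (45374321 to 45503282, minus strand) are neighbours on chromosome 1, with their 3′ ends facing each other. Col11a1 and Col24a1 are both on chromosome 3 and had log2 fold changes of opposite sign in wild-type mice. All positions are from GENCODE M21 on GRCm38.p6.

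Between genotypes under PBS, none of the 8 chains passed the test, against 0.0655% of all genes. The log2 fold change of KO PBS over WT PBS was 0.18 to 1.08 for 7 chains, with edgeR adjusted p from 0.275 (Col24a1) to 0.741 (Col5a3). Col11a1 went the other way, at -1.98 (SE 0.40, edgeR adjusted p = 0.169), a 3.96-fold lower level that DESeq2 called (adjusted p = 3.6e-04) among 3.69% of its genes. Col11a1 was also the 1 chain of the 8 with an unadjusted p under 0.05 (20.4% of all genes had one), and the 1 chain whose groups did not overlap (10.3% of all genes had every KO PBS mouse below). The other 7 overlapped because KO PBS 136 was lower than every WT PBS mouse in 6 of them and within their range for Col24a1, while KO PBS 137 and 139 were above every WT PBS mouse in all 7.

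Under bleomycin, none of the 8 chains passed the test between genotypes, by edgeR (0.0928% of all genes called) or by DESeq2 (2.99%), and 1, Col5a3, had an unadjusted p under 0.05, against 16.6% of all genes. The log2 fold change of KO BLM over WT BLM was below 0 for 7 chains, from -0.28 (SE 0.54) for Col1a1 and -0.37 (SE 0.54) for Col1a2 to -0.88 (SE 0.32) for Col5a3 and -0.95 (SE 0.52) for Col24a1. Their edgeR adjusted p ran from 0.263 to 0.797. Col11a1 was at 0.75 (SE 0.38, edgeR adjusted p = 0.343), with every KO BLM mouse above every WT BLM mouse, as in 14.6% of all genes. Without KO BLM 141, the Col1a1 difference was 0.11.

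The difference between the bleomycin responses, knockout minus wild type, was tested directly. No gene of the 18311 was called by edgeR (0%), while 5687 (31.1%) had an unadjusted p under 0.05 and DESeq2 called 17.8% of its genes. The difference was -1.06 to -2.02 on the log2 scale for 7 chains, with edgeR adjusted p of 0.114 to 0.345. For Col11a1 it was 2.73 (SE 0.55, edgeR adjusted p = 0.0702). At an unadjusted p under 0.05 there were 4 chains, Col5a2, Col5a3, Col11a1 and Col24a1, and DESeq2 called Col11a1 (adjusted p = 2.6e-04) and Col24a1 (0.0456). Leaving out KO PBS 136 gave 5 edgeR calls among the 8, with 7470 genes called in all, and leaving out both KO PBS 136 and KO BLM 141 gave 4, with 7218. Averaged over the genotypes, 5 chains were called as higher with bleomycin (22.9% of all genes called, 14.7% higher), namely Col1a1, Col5a1, Col5a2, Col5a3 and Col24a1, with log2 fold changes of 1.42 to 2.48. Col1a2 (1.09, edgeR adjusted p = 0.0628) and Col3a1 (1.15, 0.0662) were just outside the threshold, and Col11a1 was at 0.39 (0.301). DESeq2, which called 27.7% of its genes, called those 5 with Col1a2 (adjusted p = 0.0182) and Col3a1 (0.0199). With 1 mouse left out, edgeR called 4 to 7 chains, among 2001 to 6041 genes called in all. Averaged over the treatments, no chain differed between genotypes by edgeR or DESeq2 (0.158% of all genes called by edgeR and 0.722% by DESeq2, 1 chain and 5.55% of all genes at an unadjusted p under 0.05).

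Ratios between chains within a library do not depend on how libraries are scaled to each other. The Col1a1 to Col1a2 count ratio was 0.926 to 1.01 in WT PBS and 0.87 to 0.948 in KO PBS, and rose to 1.16 to 1.31 in WT BLM and 1.13 to 1.44 in KO BLM. All 6 BLM mice were above all 6 PBS mice. Averaged over the genotypes, the ratio was 1.36-fold higher with bleomycin (log2 difference 0.39 in WT and 0.49 in KO, two-sided exact permutation p = 0.005, adjusted over 8 ratio tests 0.04). That p is the smallest that the 400 arrangements can give. KO BLM 141 had the lowest BLM ratio and KO PBS 136 the highest KO PBS ratio, and both have the high hair list. The part of hair growth in this ratio was not tested.

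The type V to type I ratio was 0.116 to 0.133 in WT PBS, 0.159 to 0.258 in WT BLM, 0.0827 to 0.11 in KO PBS and 0.0994 to 0.165 in KO BLM. It was higher with bleomycin by 0.52 on the log2 scale (exact permutation p = 0.015, adjusted 0.04), and lower in knockout than in wild-type mice by a log2 difference of -0.43 (exact permutation p = 0.01, adjusted 0.04). Every KO PBS mouse was below every WT PBS mouse. In the BLM groups 1 KO mouse overlapped the WT mice. With 1 mouse left out, the bleomycin difference no longer met the threshold for 10 of the 12 mice and the genotype difference for 8. The adjusted p then lay above 0.05, at most at 0.09 (exact permutation). The log2 differences were 0.41 to 0.62 and -0.50 to -0.32.

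For type III against type I, the difference with bleomycin did not pass the threshold. The Col3a1 to Col1a1 ratio was 1.01 to 1.12 in WT PBS and 0.802 to 1.18 in WT BLM, and 0.958 to 1.32 in KO PBS and 0.691 to 0.868 in KO BLM. The log2 difference was -0.39 (exact permutation p = 0.025, adjusted 0.05). For Col5a1 to Col5a2 it was 0.38 (exact permutation p = 0.055, adjusted 0.088), and the genotypes differed by -0.13 for both of these ratios (adjusted 0.52 for each, exact permutation).

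**Figure D3:**
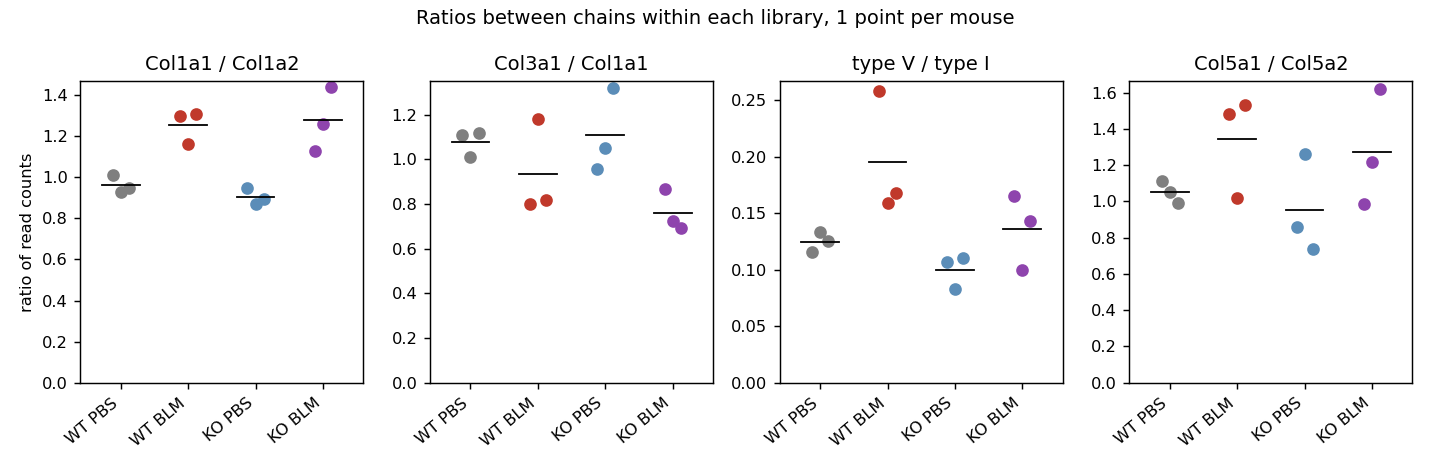
Ratios of read counts between chains within each library, on linear axes from 0, with 1 point per mouse and group means as lines. The Col1a1 to Col1a2 ratio is at most 1.01 in the PBS mice and at least 1.13 in the BLM mice of both genotypes.

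Across the 12 mice, 7 chains went up and down together. Pearson's r of a chain's log2 CPM with the mean of the other chains was 0.89 to 0.98 for these 7 and -0.16 for Col11a1, given as a description since the mice share group differences. The same 7 had r of -0.66 to -0.73 with the mean of the hair list, and Col11a1 had 0.62. The part of hair growth in the group differences was tested only as far as a fit with the hair list as a covariate goes, in which hair level and treatment largely coincide among wild-type mice. In that fit none of the 8 chains was called between WT BLM and WT PBS, and 9 of all genes were. The fitted log2 fold changes were 0.83 for Col1a1, 0.48 for Col1a2, 0.76 for Col3a1, 1.33 for Col5a1, 1.54 for Col5a2, 1.27 for Col5a3, -0.10 for Col11a1 and 2.54 for Col24a1. Between KO BLM and KO PBS the same fit called 3 chains, Col5a1 (1.93), Col5a3 (1.14) and Col11a1 (1.50), among 1702 genes, and without both high-hair knockout mice 3 were called, Col5a1 (1.40), Col11a1 (1.59) and Col24a1 (1.53), among 4164. For BLM against PBS averaged over the genotypes, the covariate fit called 4 chains among 1857 genes, Col5a1 (1.63, edgeR adjusted p = 0.00624), Col5a2 (1.40, 0.0147), Col5a3 (1.20, 0.0113) and Col24a1 (2.17, 0.00999).

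**Figure D4:**
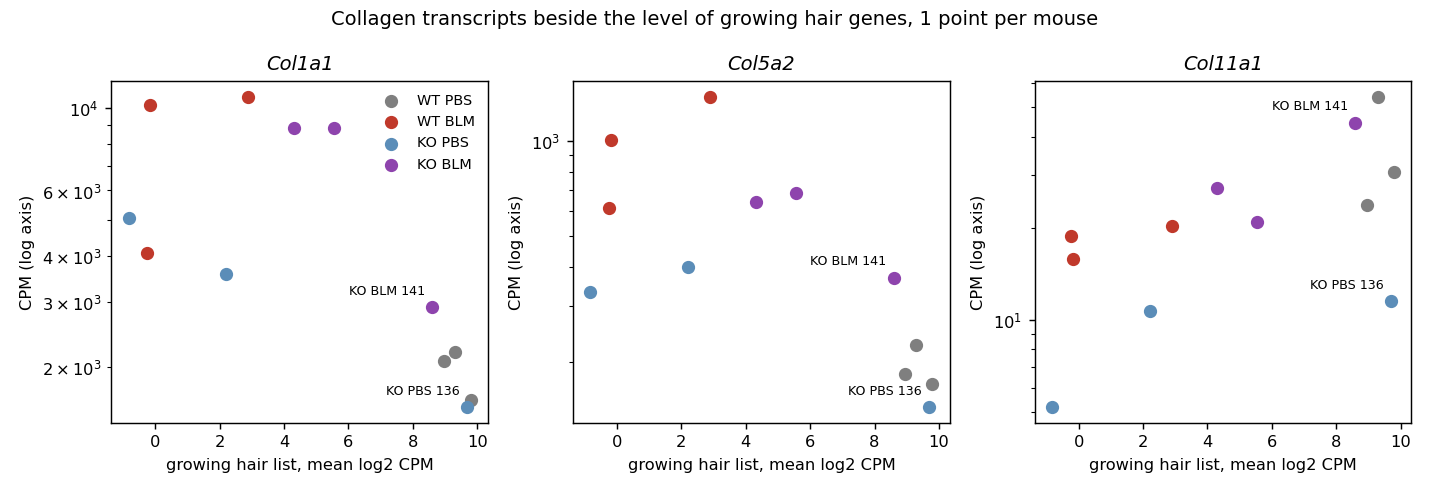
CPM of Col1a1, Col5a2 and Col11a1 on a logarithmic axis against the mean log2 CPM of the growing hair list, 1 point per mouse. KO PBS 136 and KO BLM 141 lie with the WT PBS mice at the right. KO PBS 136 is at the low end for Col1a1 and Col5a2, while KO BLM 141 (370 CPM of Col5a2) is above the WT PBS mice (170 to 226 CPM).

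The 5 other genes whose pattern over the 12 mice was most like the mean of the 8 chains were Col6a1 (Pearson's r = 0.991) and Col6a2 (0.990), chains of the beaded-filament collagen VI, then Ikbip (0.989), Lrrc17 (0.985) and Ppic (0.984), a cyclophilin. Col6a1 rose with a log2 fold change of 2.30 (edgeR adjusted p = 0.00834) in wild-type mice and Col6a2 with 2.40 (0.0101).

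Of the other fibril-forming chains, Col27a1, a chain of developing cartilage and other tissues, had 18.5, 11.2 and 9.65 CPM in WT PBS and 49.5, 72.4 and 53.2 CPM in WT BLM. It rose by a log2 fold change of 2.15 (SE 0.39, edgeR adjusted p = 0.00595). Col2a1, the major cartilage chain, was close to the limit of counting, at 0.507 to 0.994 CPM in WT PBS and 1.61 to 1.92 CPM in WT BLM (log2 fold change 1.20, edgeR adjusted p = 0.0308). Col11a2, the second chain of type XI, was at 3.49 to 7.91 CPM in WT PBS and 4.66 to 5.36 CPM in WT BLM (log2 fold change -0.33, edgeR adjusted p = 0.460). None of these 3 was called in the knockouts by edgeR or DESeq2, where Col2a1 and Col27a1 had unadjusted p under 0.05, as did 20% of all genes. Only 1 of the 2 wild-type calls was left when any wild-type mouse other than WT PBS 161 was left out, with 2615 to 4027 genes called in all. With the hair list as a covariate 0 were left, and 9 of all genes were called.

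The next 5 gene groups run from folding to regulators. They are to be read against the 19.8% of all genes called higher and 14.1% called lower in WT BLM with all mice in. With 1 wild-type mouse left out, 2615 to 4027 genes were called in all, against 6222. With the hair list as a covariate, none of the members of these groups and 9 of all genes were called there. Hair level and treatment largely coincide among wild-type mice, so that fit cannot tell them apart. Knockout counts are to be read against 0.306% of all genes called by edgeR, 5.95% by DESeq2 and 20% with an unadjusted p under 0.05. Of 21 tested genes that fold, modify and export procollagen, 16 were higher in WT BLM and none lower, with a median log2 fold change of 1.21 against 0.02 for all genes. With 1 wild-type mouse left out, 10 (without WT PBS 159) to 15 were higher. The largest increases were in P4ha3, a catalytic subunit of prolyl 4-hydroxylase (4.13, edgeR adjusted p = 0.0122), Fkbp10, a peptidyl-prolyl isomerase of the endoplasmic reticulum (2.12, 0.00708), and Tmem38b, an endoplasmic reticulum ion channel (1.84, 0.00477). Serpinh1, the collagen chaperone HSP47, went from 222 to 247 CPM in WT PBS to 458 to 853 CPM in WT BLM (1.55, 0.0109), and P4ha1 rose by 1.13 (0.00881). The smallest called increases were those of P3h2 (1.02), Creb3l1, a transcription factor of secretory cells (0.98), and Crtap, a partner of prolyl 3-hydroxylase (0.76). Plod2, a lysyl hydroxylase that shapes cross-links, was at 0.86 (edgeR adjusted p = 0.130). In the knockouts none of the 21 was called by edgeR, the median was 0.41, and 7 had an unadjusted p under 0.05. DESeq2 called P4ha3 (2.62, adjusted p = 0.0305) and P3h1 (0.99, 0.0381) there.

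Of 12 tested genes of propeptide cleavage and cross-linking, 7 rose in WT BLM and 1 fell, with a median of 1.24. Of these, 5 rose when any 1 WT PBS mouse, WT BLM 146 or WT BLM 147 was left out. Lox, the founding lysyl oxidase that starts cross-linking, went from 13.1 to 24.7 CPM in WT PBS to 84.5 to 163 CPM in WT BLM (log2 fold change 2.78, edgeR adjusted p = 0.00439). Loxl3 rose by 3.04 (0.00302) and Adamts14, an N-propeptidase, by 2.04 (0.00681). Pcolce, an enhancer of C-propeptide cleavage, rose by 1.17 (0.0474) while its relative Pcolce2 fell by 2.0 on the log2 scale (0.0121). Bmp1, the C-propeptidase itself, was at 0.46 (0.110). In the knockouts none of the 12 was called by edgeR, 4 had an unadjusted p under 0.05, Lox was at 0.73 (edgeR adjusted p = 0.333) and Pcolce2 at -2.43 (0.0570). DESeq2 called Pcolce2 (adjusted p = 1.4e-05) and Loxl3 (1.33, 0.0111) there.

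**Figure D5:**
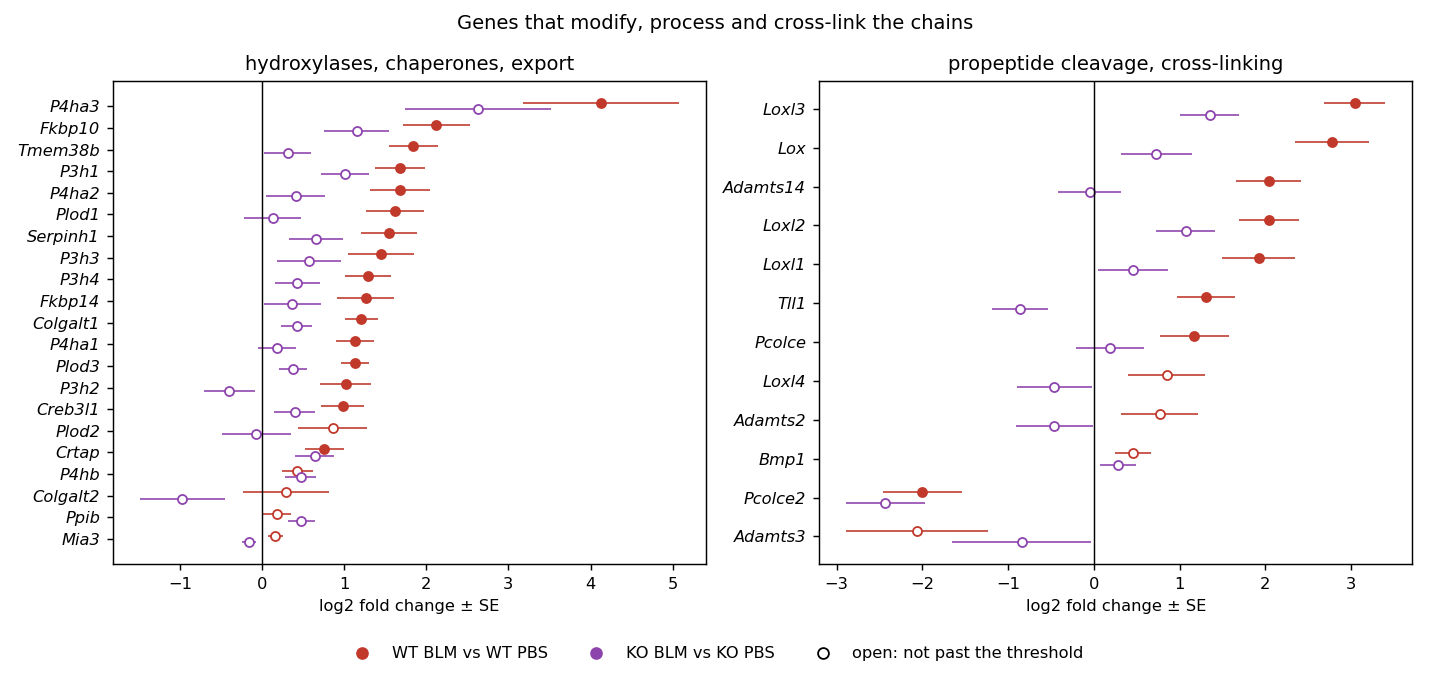
Log2 fold changes with standard errors of genes that modify, fold and export the chains (left) and that cleave and cross-link them (right), for bleomycin against PBS in WT and in KO mice. Filled points, edgeR adjusted p under 0.05, occur only for WT mice, from P4ha3 at 4.13 to Pcolce2 at -2.0.

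On the fibril surface, 10 of 24 tested genes rose in WT BLM and none fell (median 0.88), and 7 (without WT PBS 160) to 11 rose with 1 wild-type mouse left out. They included Aspn, a leucine-rich proteoglycan (log2 fold change 3.20), Postn, a matricellular protein (2.90), Fn1, fibronectin (2.75), and Col12a1, a collagen bound to fibril surfaces (2.15, edgeR adjusted p = 0.00594). Lum, lumican, rose by 1.71 (edgeR adjusted p = 0.0484), at the threshold. Dcn, decorin, the main small proteoglycan of dermal fibrils, was at -0.21 (0.789), and Fmod, fibromodulin, at 0.30 (0.474). Col12a1 had a knockout value of 2.11 (0.0541), close to its wild-type value, and none of the 24 was called in the knockouts by edgeR (9 at an unadjusted p under 0.05). DESeq2 called 4 of them there, Col12a1 (adjusted p = 1.2e-05) and Bgn, biglycan (0.00103), as higher and Tnxb, tenascin X (0.00267), and Ogn, osteoglycin (0.0474), as lower.

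Among 18 tested genes of collagen breakdown and collagen receptors, 8 rose in WT BLM and 1 fell, with a median of 1.11. Without WT PBS 160, 5 rose and none fell. The collagenases Mmp13 (7.83, edgeR adjusted p = 0.00405) and Mmp8 (4.35, 0.0151) and the inhibitor Timp1 (4.15, 0.00215) rose most, and Mmp14, a membrane-bound collagenase, rose by 1.71 (0.0320). Timp3 fell by 0.96 on the log2 scale (0.0360), and the collagen-binding integrin Itga11 was at 1.08 (0.106). Timp1 was called in the knockouts too, with 2.66 to 6.63 CPM in KO PBS and 24.0 to 71.6 CPM in KO BLM (3.30, edgeR adjusted p = 0.0305). DESeq2 called 5 there, Timp1, Mmp13 (adjusted p = 3.4e-07), Mmp8 (0.0151) and Lair1, a collagen receptor of leukocytes (0.0206), as higher and Timp3 (0.0474) as lower.

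Of 23 regulators of collagen transcription tested, 7 rose and 4 fell in WT BLM (median 0.36). Without WT PBS 159 or 160, 4 rose and none fell. Among those that rose were the TGF-β ligand Tgfb3 (2.01, edgeR adjusted p = 0.00638) and the Ets factor Fli1 (1.52, 0.0142), known as a repressor of collagen genes. The inhibitory Smad7 fell by 1.83 on the log2 scale (0.0337), Smad2 by 0.49 (0.0303) and the GC-box factor Sp1 by 0.45 (0.0341). Ccn2, connective tissue growth factor, was at 0.87 (0.0552). None of the 23 was called by edgeR in the knockouts and 1 by DESeq2, which called 5.95% of its genes there. Of the 23, 6 had an unadjusted p under 0.05, as did 20% of all genes.

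Markers of several cell types also differed between WT BLM and WT PBS. Of 18 fibroblast markers, 9 rose and 2 fell in WT BLM (median 1.21), the latter being Pi16 (-4.27) and Dpp4 (-2.29), both markers of resting fibroblast populations, while Pdgfra was at 0.06 and Cd34 at -0.02. Of 9 myofibroblast markers 5 rose in WT BLM, among them Cthrc1 (3.97, edgeR adjusted p = 0.00405) and Acta2 (1.04). Lrrc15 (-1.84), Tagln (-0.20), Myl9 (-0.06) and Cnn1 (0.14) were not called there. In the knockouts Cthrc1 (4.05, edgeR adjusted p = 0.0341) and Tagln (0.86, 0.0341) were called. Of 10 skeletal muscle genes 9 rose in WT BLM (median 2.37), their summed level being 4925 to 5483 CPM in WT PBS, 18336 to 36628 in WT BLM, 6038 to 24557 in KO PBS and 10181 to 19979 in KO BLM. Myh3, an embryonic myosin, rose most (7.16), followed by the perinatal myosin Myh8 (5.99), and Myh3 was called in the knockouts too (6.99, edgeR adjusted p = 0.0467). Of 10 macrophage genes 8 rose (median 1.99), from 462 to 1029 CPM in sum in WT PBS to 2436 to 3533 in WT BLM, and with 482 to 2234 in KO PBS and 1670 to 2328 in KO BLM. Of the hair list, 23 of 38 genes fell. Of 12 cartilage and bone genes, 5 had enough reads to be tested, of which Spp1 (5.10) and Dmp1 (3.42) rose and Sp7 (-1.95) and Acan (-2.46) fell, and their summed level was at most 156 CPM in any mouse. Of 10 epidermal genes 3 rose, Krt6b (10.42), Krt16 (4.31) and Krt1 (3.37), against 19.8% of all genes. Of 8 Schwann cell and adipocyte genes 1 rose (median 0.43). In the knockouts, where the 8 chains had a median of 0.98, the medians were -0.02 for the fibroblast, 0.86 for the myofibroblast, 0.04 for the muscle and 0.50 for the macrophage list. They were -0.84 for the hair, 0.99 for the cartilage and bone, 0.93 for the epidermal and -1.05 for the Schwann cell and adipocyte list. DESeq2, which called 5.95% of its genes there, called 4 myofibroblast, 2 muscle, 2 epidermal and 1 cartilage and bone gene as higher and 2 fibroblast genes as lower. The part of these tissue differences in the collagen values was not tested.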

How the data were processed

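Per the file headers and labels, the authors deposited read counts per gene, 1 column for each of the 12 skin libraries, in a table of 55453 symbols with no unnamed row and 0 unmapped columns. Libraries were made with a stranded kit. The submitters' processing notes name GRCm38.p6 and MultiQC 1.7. The aligner, the counter and its strand setting are not given in the sources used here.

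Counts were analysed with edgeR 4.0.16 in R 4.3.3 (TMM factors, filterByExpr with minimum counts of 10 and 15 in total, quasi-likelihood test, 1 model of 4 group means over all 12 mice, Benjamini-Hochberg adjustment over 18311 genes, threshold 0.05). The coefficient of biological variation was 34.9%. DESeq2 1.42.0 was an alternative. CPM used TMM-scaled totals, and CPM per kb the longest principal transcript of GENCODE M21. Chain ratios used counts plus 0.5 and exact permutation tests stratified by genotype or treatment, adjusted over 8. The edgeR and ratio steps were tested on simulated data. Figures were drawn with matplotlib 3.10.9.

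The 8 chains and all gene lists were chosen with earlier results of these data known. Genes were named by rule: all 8 chains, the 3 other fibril-forming chains, Thy1, the 3 largest and 3 smallest called changes of a list, a set of key enzymes and matrix genes, and the 5 genes most correlated with the chains. Not every gene that this rule allows is named, and some results are not reported here. Col21a1 and Krt85 of the lists were not matched. Replicates are separate mice, and each mouse has its own number.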

Additional observations from a re-analysis of the deposited data

Results flagged for a closer look

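Col11a1 was singled out because its response to bleomycin differed in sign between the genotypes. All 3 WT BLM mice were below all 3 WT PBS mice (log2 fold change -0.98), and all 3 KO BLM mice were above all 3 KO PBS mice (1.75). The difference, knockout minus wild type, was 2.73 on the log2 scale (SE 0.55), with an edgeR adjusted p of 0.0702 that did not pass the threshold and an unadjusted p of 4.9e-04 from the same model. The difference ran from 2.31 to 2.96 with 1 mouse left out (edgeR adjusted p from 0.00397, without KO PBS 136, to 0.167), and was 2.58 without both KO PBS 136 and KO BLM 141 (0.00630). With the hair list as a covariate the difference fell to 1.60 (SE 0.73, edgeR adjusted p = 0.708). In that fit Col11a1 in KO PBS against WT PBS was at -1.44 (edgeR adjusted p = 0.861). Col11a1 rested on 181 to 2122 reads per library.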

How the results depend on the processing

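Bleomycin calls among the 8 chains in wild-type mice stayed at 7 or 8 under DESeq2, other normalizations, other filters and a fit of the compared groups alone. Of these calls 7 were higher each time, and Col11a1 was called as lower where there were 8. With the hair list as a covariate the calls fell to 0, and 9 of all genes were called. With 1 mouse left out they ranged from 4 to 8, at most 7 of them higher, among 2615 to 8565 genes called in all. In the knockouts the count of 0, among 56 genes called in all, became 2 with DESeq2 (among 1202) and 3 with the hair covariate (among 1702). It was 3 without both KO PBS 136 and KO BLM 141 (among 4164). With 1 mouse left out it ranged from 0 to 1, the 1 being without KO PBS 136, among 2632 genes. KO PBS vs WT PBS went from 0 to 1 with DESeq2 (among 746 genes) and 5 without both mice (4 of them higher, among 7648 genes called in all). With 1 mouse left out its count ranged from 0 to 1, the 1 being without KO PBS 136, among 6870 genes. The difference between responses went from 0 to 2 with DESeq2 (among 3253 genes) and 4 without both (among 7218). With 1 mouse left out its count ranged from 0 to 5, the 5 being without KO PBS 136, among 7470 genes. KO BLM vs WT BLM stayed at 0 in every setting, with 5 to 1292 genes called in all, the most without KO PBS 136. Without WT PBS 159, the increases among folding and export genes went from 16 to 10, while genes called in all went from 6222 to 2626.

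With the hair covariate, values of KO PBS against WT PBS changed sign to -0.25 (Col1a1), -0.16 (Col1a2), -0.18 (Col3a1), -0.62 (Col5a1), -0.08 (Col5a2) and -0.33 (Col5a3), with SE of 0.37 to 0.69. Those of KO BLM against WT BLM changed to 0.39 (Col1a1) and 0.29 (Col1a2), with an SE of 0.52 for each. The differences between responses changed to 0.64 (Col1a1), 0.45 (Col1a2), 0.10 (Col3a1) and 0.60 (Col5a1), with SE of 0.66 to 1.05. None of these values was called, with or without the covariate. Col1a1 in KO BLM vs WT BLM became 0.08 without both mice. With 1 mouse left out it ranged from -0.61 to 0.11 (without KO BLM 141), Col3a1 in KO BLM vs KO PBS from -0.00 (without KO PBS 136) to 0.69, and Col5a3 in KO PBS vs WT PBS from -0.01 (without KO PBS 137) to 0.42. The cause was not tested.

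Ratio tests without both mice gave log2 differences of 0.50 for Col1a1 to Col1a2 with bleomycin (exact permutation, adjusted p = 0.0667). For type V to type I they were 0.47 (0.0889) with bleomycin and -0.53 (0.0667) between genotypes. With all mice in, the same differences were 0.44, 0.52 and -0.43. Fewer mice leave fewer arrangements, so the smallest p that these tests can give is larger than with all mice in. Adjusted p above the threshold therefore cannot show that the differences depended on both mice. With 1 mouse left out, the Col1a1 to Col1a2 genotype difference ranged from -0.08 to 0.01, reached without KO BLM 141, type V to type I from 0.41 to 0.62 and from -0.50 to -0.32, Col3a1 to Col1a1 with bleomycin from -0.48 to -0.32, and Col5a1 to Col5a2 with bleomycin from 0.29 to 0.49, the last 2 passing the threshold without WT BLM 146. The median log2 fold change of all genes shifted by 0.05 or less under other scalings. No paired analysis was possible because every mouse carries its own number and the groups share none.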
